A study of Mus musculus with 1 sample.

Results

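The clustered histone genes were taken as the rows whose gene symbol starts with Hist1h, Hist2h, Hist3h or Hist4h, which gave 67 of the 32285 genes of the matrix. They comprised 6 genes for the linker histone H1, 18 for H2A, 18 for H2B, 12 for H3 and 13 for H4. In the GRCm38 annotation 54 of them lie in the Hist1 cluster at chr13:21715763-23934851, 10 in the Hist2 cluster at chr3:96219865-96270132, 2 in Hist3 at chr11:58948920-58956830, and Hist4h4 stands alone at chr6:136801553-136804415. All 67 are annotated as protein coding.

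Nucleosomes are built from the core histones H2A, H2B, H3 and H4, and linker H1 binds where DNA enters and leaves them. Most clustered histone genes are transcribed in S phase, when new chromatin is assembled, and their mRNAs usually end in a conserved stem-loop bound by Slbp in place of a poly(A) tail. Some members also produce longer, polyadenylated transcripts, which dividing and non-dividing cells can both make. The libraries primed on poly(A), so the values below count the histone transcripts that this priming captured and do not measure the whole histone mRNA pool.

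The cells came from 1 droplet 3′ library of lineage-negative, cKit+ bone marrow cells from femora and tibiae of C57BL/6 mice. The genotype was Brd9 fl/fl, a floxed allele of a chromatin remodelling subunit, without the deletion, and served as the study's control. The mice received 3 doses of 20 mg/kg pIpC, an inducer of the interferon response used to switch on a Cre driver, given every other day, and cells were prepared 8 weeks later. The labels describe transplanted CD45.2+ donor cells in CD45.1+ recipients, whereas the series text describes primary mice treated 4 weeks after birth, and the number of animals pooled is not given. Cells with Brd9 deleted were not analysed here.

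Of 8817 barcodes, 7645 passed the cell filter, with 1592 to 49991 unique molecular identifiers (UMIs, each a captured molecule) per cell and a median of 18696. Levels are given as CPM, the UMIs of a gene per 1000000 UMIs summed over the cells of a group, with 95% intervals in parentheses. With 1 library there was no replicate and no test between conditions, and all intervals cover counting error only. A difference is called here when it reached 2-fold.

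The stem-loop pattern, a 6-base stem closing a 4-base loop, was searched in the GENCODE transcripts of the GRCm38 build. It was found on the transcript strand in 44 of 67 members (65.7%), against 146 of 55450 annotated genes (0.263%). Windows around it are shown for members with many UMIs or with an unusual response below, with the stem-loop in capitals:
Hist1h2ap: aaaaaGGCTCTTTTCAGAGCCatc
Hist1h2ae: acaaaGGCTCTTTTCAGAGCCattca
Hist2h2ac: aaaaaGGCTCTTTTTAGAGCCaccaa
Hist1h3c: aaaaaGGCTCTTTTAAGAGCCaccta
Hist1h4d: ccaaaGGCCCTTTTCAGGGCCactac
Hist1h1c: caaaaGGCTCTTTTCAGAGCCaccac
Hist1h2ac: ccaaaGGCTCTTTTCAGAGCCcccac

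The commonest form, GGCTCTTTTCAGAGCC, was present in 26 members, and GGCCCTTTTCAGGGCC in 7. The distance from the stem-loop to the annotated transcript end separated these genes further. Only 3 bases followed it in Hist1h2ap, 57 in Hist2h2ac and 74 in Hist1h3c, whereas 840 followed it in Hist1h1c and 2010 in Hist1h2ac. A polyadenylation signal, AATAAA or ATTAAA, lay within the last 40 bases of an annotated transcript in 17 members. It is shown in capitals for a linker histone gene and for the H2A gene with the second most UMIs of its type:
Hist1h1c: gtatgcttctAATAAAaagcgtttag
Hist1h2ae: cagcttctccAATAAAtgggtcaatt

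A match to either pattern describes the annotated sequence and does not show which end was used. Hist1h1b and Hist1h1a have neither feature in an annotated transcript. In the RefSeq promoters of GRCm38.p6, which span 250 bases before to 50 after the start, 62 members were matched by name and overlapping position, and both strands were searched. A gene with more than 1 promoter, such as Hist1h2be, was counted once if any of them held the motif. The octamer ATTTGCAT was present in 7 of 18 H2A and 7 of 16 H2B genes and in 0 of the matched H1, H3 and H4 genes, against 1.97% of 27025 genes. Some H2A and H2B promoters overlap on opposite strands, and the same octamer site was then counted for both genes. These pairs were Hist1h2ae with Hist1h2bg, Hist1h2ah with Hist1h2bk, and Hist1h2aa with Hist1h2ba. CCAAT was present in 53 of 62 (85.5%), against 41.1% of all genes, but in only 3 of 12 for H4. TATAAA was present in 35 of 62 (56.5%), against 15.7%.

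Clustered histone transcripts amounted to 784363 UMIs in the cells kept, which was 0.517% of all UMIs or 5165 CPM (5154 to 5177). H2A supplied 43.1% of them and H1 38.6%, while H3 supplied 7.03%, H4 5.65% and H2B 5.61%. The captured UMIs were concentrated in few genes, and 4 members held 64.5% of them. Hist1h1b (chr13:21779883-21780625, minus strand), which encodes a linker histone, had 166552 UMIs. Hist1h2ap (chr13:21833026-21833507, minus strand) had 157630, Hist1h2ae (chr13:23570517-23571220, minus strand) 114561 and Hist1h1e (chr13:23620629-23622558, minus strand) 67525.

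**Figure D1:**
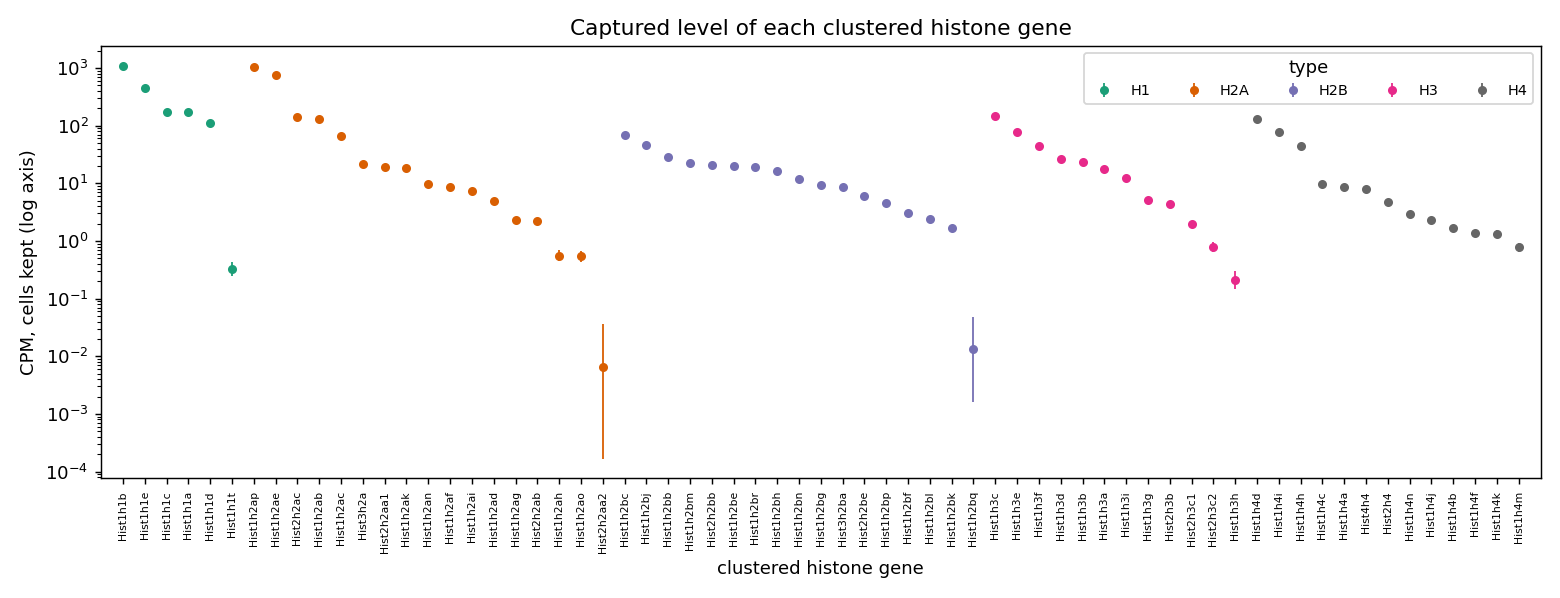
Level of each of the 65 clustered histone genes with at least 1 UMI, in CPM over the cells kept on a log axis, ordered by UMIs within the types H1, H2A, H2B, H3 and H4. Points are summed levels and bars are 95% Poisson intervals. Hist1h1b and Hist1h2ap lie highest, near 1097 and 1038 CPM.

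Within H1, Hist1h1c followed with 25972 UMIs and Hist1h1a with 25745. Within H2A, Hist2h2ac had 21731 and Hist1h2ab 19472. No H2B gene reached those numbers: Hist1h2bc had 10336, Hist1h2bj 7122, Hist1h2bb 4325 and Hist1h2bm 3356. The spread within H2B was more even, since Hist1h2bc held 23.5% of its type, whereas Hist1h1b held 55.0% of H1.

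Among H3 genes, Hist1h3c had 22559 UMIs, Hist1h3e 11941, Hist1h3f 6706 and Hist1h3d 3953. Among H4 genes, Hist1h4d had 19811, Hist1h4i 11580, Hist1h4h 6625 and Hist1h4c 1477. These orders are orders of captured molecules and not of transcript abundance. The testis genes Hist1h2aa and Hist1h2ba had 0 UMIs, which allows up to 0.0198 CPM (3 UMIs of the total), and the testis linker gene Hist1h1t had 50 UMIs.

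Assignment to single copies was limited by sequence. In the annotation, 27 members shared over 50% of their 90-base windows with another gene, and 6 shared none. The share was 92.4% for Hist1h2ap, 31.9% for Hist1h2ae and 0 for Hist1h1b. Windows were 100% shared for Hist2h2aa2, which had 1 UMI, and for Hist2h3c1, which had 296. On the same strand, 7 members overlap another gene, among them Hist1h1e with Hist1h2be, so their split is uncertain. On the opposite strand 21 members overlap a gene, and the strand setting of the counting is not given in the sources used here.

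To relate the histone genes to the cell cycle, each cell with enough UMIs was thinned to 5000 UMIs and sorted by whether Pcna, the replication clamp, and Mki67, a proliferation marker, were detected. Of 7546 such cells, 1459 had neither, 2239 only Pcna, 2760 both and 1088 only Mki67. The clustered histone level was 2437 CPM with neither, 3097 with only Pcna, 6872 with both and 6220 with only Mki67. The level was thus high in the groups with Mki67 and lower in those without it. It was 2.82-fold higher (2.79 to 2.85) with both than with neither, 1.27-fold higher (1.26 to 1.28) with only Pcna, and 2.55-fold higher (2.53 to 2.58) with only Mki67. Median depth before thinning followed the order of the histone level in all groups. It was 12284 UMIs with neither, 16663 with only Pcna, 20218.5 with only Mki67 and 23240 with both. The part of depth in the result was not tested.

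The difference was measured gene by gene in the 60 members with at least 50 UMIs over the groups with both and with neither. Of these, 48 were at least 2-fold higher with both and 0 were 2-fold lower, with a median ratio of 2.85. Over all 12646 genes measured in the same way, 5.54% were at least 2-fold higher, 11.8% at least 2-fold lower, and the median ratio was 0.929. By type, the summed ratio was 3.41 (3.28 to 3.53) for H3, 2.99 (2.94 to 3.03) for H1, 2.81 (2.77 to 2.85) for H2A, 2.55 (2.46 to 2.65) for H4 and 1.82 (1.76 to 1.88) for H2B. The summed H2B ratio therefore stood below that of the other types. This did not hold for the median of single genes, which was 2.91 for H2B. It was 2.40 for H1, 2.57 for H4, 3.14 for H2A and 3.41 for H3.

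Several abundant genes had larger ratios than the sum of their type. Hist1h3c was at 40.3 CPM with neither, 64.1 with only Pcna, 213 with both and 205 with only Mki67, a ratio of 5.28 (4.93 to 5.66) between both and neither. Hist1h2ab was at 36.2, 54.7, 185 and 172 CPM in that order, a ratio of 5.12 (4.76 to 5.51). The linker gene Hist1h1b was at 389, 616, 1564 and 1207 CPM, a ratio of 4.02 (3.93 to 4.11). In each of these genes the group with both was highest and that with neither lowest. Hist1h1a had a ratio of 4.39 (4.15 to 4.66).

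Other abundant members had ratios nearer the histone median. The ratio was 2.76 for Hist1h2ap, 3.18 for Hist1h2ae, 3.14 for Hist2h2ac and 2.33 for Hist1h1e. Among H2B genes it was 3.60 for Hist1h2bj, 3.92 for Hist1h2bb and 3.59 for Hist1h2bm. Among H3 and H4 genes it was 2.45 for Hist1h3e, 3.09 for Hist1h3f, 3.35 for Hist1h4d, 2.04 for Hist1h4i, 2.31 for Hist1h4h and 2.57 for Hist1h4c. The 2 highest ratios of all came from sparse genes, 11.2 (2.98 to 94.2) for Hist2h3c2 with 120 UMIs and 7.35 (3.29 to 20.4) for Hist1h4f with 207, and their intervals were wide.

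**Figure D2:**
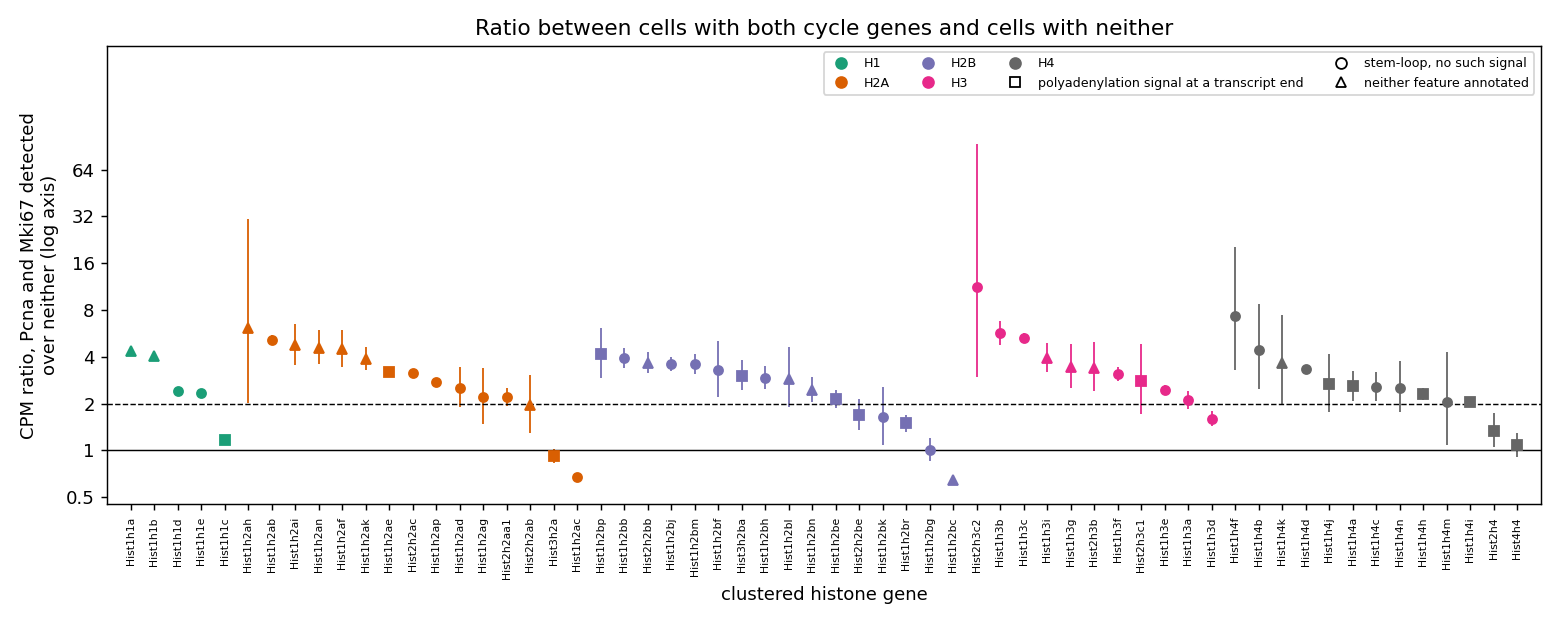
Ratio of CPM in cells with Pcna and Mki67 detected to CPM in cells with neither, on a log axis, for the 60 clustered histone genes measured. Colours give the histone type, symbols the annotated transcript end, bars 95% intervals, the solid line no difference and the dashed line 2-fold. Most genes lie above 2, while Hist1h2ac and Hist1h2bc lie below 1.

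A set of 10 members with at least 500 UMIs stayed under 2-fold. Hist1h2bc was at 83.0 CPM with neither, 68.1 with only Pcna, 53.6 with both and 96.4 with only Mki67, so its ratio was 0.646 (0.611 to 0.684). Hist1h2ac was at 78.7, 61.9, 52.9 and 103 CPM, with a ratio of 0.672 (0.634 to 0.712). The linker gene Hist1h1c was at 155, 133, 180 and 222 CPM, with a ratio of 1.16 (1.12 to 1.21) that became 0.980 when each cell was weighted equally. In all 10 genes the group with only Mki67 was highest, a pattern seen in 29 of the 60 measured members, whereas the other 31 were highest with both.

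The remaining genes of that set had ratios of 0.924 for Hist3h2a, 1.01 for Hist1h2bg, 1.08 for Hist4h4, 1.34 for Hist2h4, 1.50 for Hist1h2br, 1.60 for Hist1h3d and 1.69 for Hist2h2be. The interval held 1 for Hist3h2a, Hist1h2bg and Hist4h4. Together the 10 genes held 7.76% of the clustered histone UMIs, and Hist1h2bc alone was the H2B gene with most UMIs.

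Ratios were then set beside the annotated transcript ends. The 15 measured members with a polyadenylation signal at a transcript end had a median ratio of 2.14, and 9 of them reached 2-fold. The 29 with a stem-loop and no such signal had a median of 2.76, and 25 reached 2-fold. The 16 with neither feature annotated had a median of 3.76, and 14 reached 2-fold. Some of their annotated transcripts are short, such as 312 bases for Hist1h4k and 381 for Hist1h2bn. A feature beyond the annotated end would not have been found. Split instead by distance, a division chosen after the values were seen, 19 of 20 members with under 100 bases after the stem-loop and 12 of 18 with 300 or more reached 2-fold. Long transcripts were found on both sides of 2-fold. Hist1h2ac, with 2010 bases after the stem-loop, had a ratio of 0.672. Hist1h1d, with 4884, had a ratio of 2.40, and Hist1h4d, with 770, a ratio of 3.35.

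Graded levels of Pcna and Mki67 were examined next. From 0 to 5 or more thinned Mki67 UMIs the clustered histone level went from 2860 to 9221 CPM, and over the same range of Pcna UMIs from 4387 to 8229. In cells without a Mki67 UMI it was 2437, 2812, 3206 and 3592 CPM at 0, 1, 2 and 3 or more Pcna UMIs. In cells with one it was 6220, 6219, 6442 and 7889 CPM. Every level with Mki67 was above every level without it. Across the 7546 thinned cells, which share a library and a depth, Pearson's r of the clustered histone count was 0.516 with Mki67 and 0.202 with Pcna, and for H2B and Pcna it was 0.0313.

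Cells were also ordered by lists of 22 DNA replication genes and 20 mitosis genes. Along the mitosis list the histone level was between 1459 and 1579 CPM in deciles 1 to 4, 2691 in decile 5, 5272 in decile 6 and 8574 in decile 10. Along the replication list it was 2332 CPM in decile 1, between 4757 and 4955 in deciles 3 to 7, and 7442 in decile 10. H3 had the steepest course along the mitosis list, from 74.6 to 703 CPM, and H2B went from 130 to 468.

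**Figure D3:**
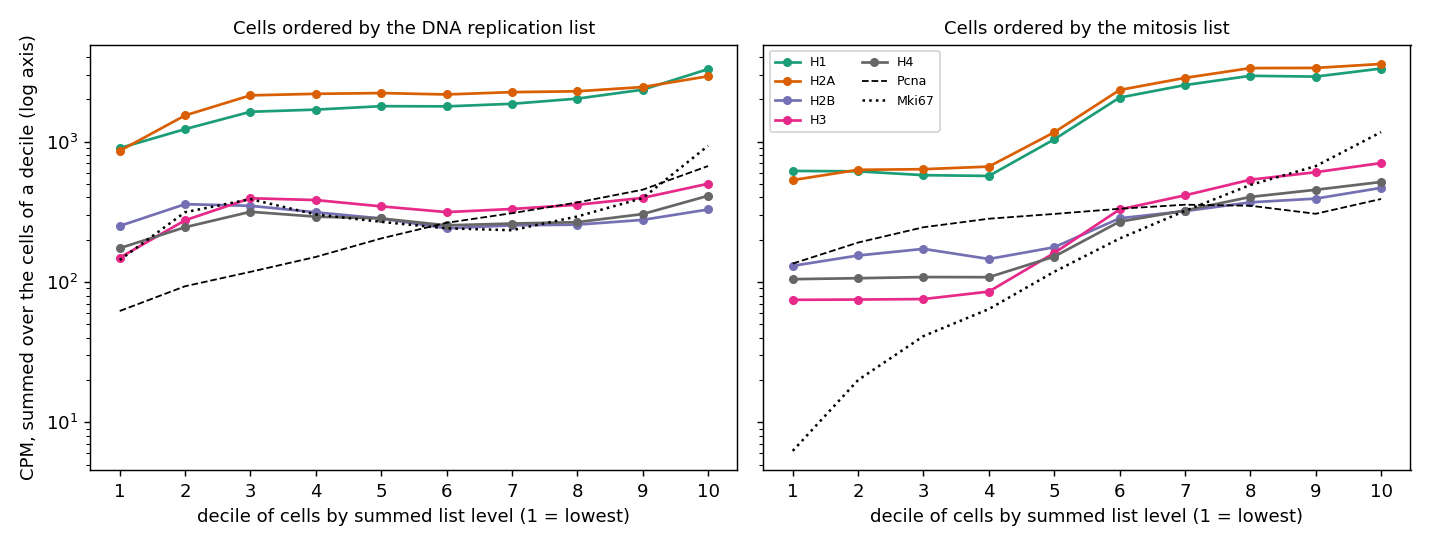
Summed CPM of each histone type, of Pcna and of Mki67 on a log axis, in deciles of cells ordered by the summed level of the DNA replication list (left) or the mitosis list (right). Pcna belongs to the first list and Mki67 to the second. From mitosis decile 1 to 10 the H3 level goes from 74.6 to 703 CPM and the H2B level from 130 to 468, and H1 and H2A lie above the other types in every decile.

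The lists themselves frame these ratios. Between cells with both and with neither, 11 of 22 replication genes were at least 2-fold higher, from 1.47 for Mcm6, a helicase subunit, to 5.79 for Ccne1, an S-phase cyclin. Of the mitosis genes 19 of 20 were, from 1.69 for Cks2 to 9.25 for Mki67, which with Pcna set the groups. Of 12 genes for histone transcription and 3′ processing 1 was, Slbp, the stem-loop binding protein, at 2.24, and the lowest was Lsm10 at 0.891. Of 6 histone chaperones 2 were, with Asf1b highest at 2.71 and Asf1a lowest at 1.42.

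Histone genes outside the clusters were counted in the same way. Of 11, the centromeric Cenpa at 2.39 and H2afx at 2.17 were at least 2-fold higher, and the median was 1.06. The lowest were H2afy2, a macroH2A gene, at 0.556 and H1f0, a linker histone gene of resting and differentiating cells, at 0.597.

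Single cells varied widely. The median cell held 2341 CPM of clustered histone UMIs, the 5th percentile 418, the 95th 13739 and the highest 29412. In 1135 cells (14.8%) these genes took at least 1% of all UMIs, and 17 cells had none. Such high cells made up 2.12% (1.45 to 3.00) of those with neither cycle gene, 4.33% (3.53 to 5.26) with only Pcna, 26.6% (24.95 to 28.3) with both and 24.7% (22.2 to 27.4) with only Mki67. The H1 and H2A sums followed each other across cells with r = 0.792, and H1 and H2B with r = 0.457.

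Progenitor gates were defined by marker lists. A cell was assigned to the list with the most genes detected after thinning, with at least 3 detected and 2 more than any other list. The granulocyte-monocyte list of 6 genes did not compete in this way. It took only cells with under 3 genes of every other list and at least 3 of its own. Because these lists set the gates, high levels of their markers there were largely built in, and the counts below do not check the gates. All 10 stem, erythroid and megakaryocyte markers were highest in their gates. So were 9 of 10 neutrophil, 9 of 10 basophil or mast, 8 of 10 monocyte, 8 of 10 dendritic and 7 of 8 multipotent lymphoid-primed markers. The gate set up for granulocyte-monocyte cells had 0 of its 6 markers highest there, 5 being highest in the neutrophil gate and Cebpa in the basophil or mast gate, and it is called the Mpo and Prtn3 gate. No gate was given to 2080 cells (27.6%).

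The clustered histone level was lowest in the stem gate, at 2100 CPM (2064 to 2136, 639 cells). It was 3492 in the neutrophil gate (510 cells), 4191 in the multipotent lymphoid-primed gate (197), 4728 in the megakaryocyte gate (350) and 4961 in the Mpo and Prtn3 gate (328). Above these stood the dendritic gate with 5346 (110) and the monocyte gate with 5448 (1592), whose intervals overlapped. The erythroid gate had 6285 (6261 to 6310, 1338 cells) and the basophil or mast gate 7341 (7269 to 7413, 390 cells), which was 3.50-fold (3.43 to 3.57) the stem level. Doublet calls made up 6.67% of the basophil or mast gate, 5.46% of the erythroid and 7.27% of the dendritic gate, and without them the basophil or mast level was 7486 CPM.

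This order was not that of the cycle genes. Mki67 was 720 CPM in the erythroid gate and 346 in the basophil or mast gate, and Pcna was 484 and 219. The basophil or mast gate had 21.2 clustered histone UMIs per Mki67 UMI and the erythroid gate 8.72, while the neutrophil gate, with Mki67 at 89.8 CPM, had 38.9. Over the 9 gates r was 0.656 between the histone level and Mki67 and 0.501 with Pcna, a description over gates that share 1 library.

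Between the erythroid and the stem gate, 39 of 57 measured members were at least 2-fold higher and 1, Hist1h2ac, was 2-fold lower, with a median ratio of 3.66. Over all 11460 genes measured 12.6% were at least 2-fold higher, 32.8% at least 2-fold lower, and the median ratio was 0.787. The 2 gates also differed in makeup. Both cycle genes were detected in 69.4% of erythroid and 10.2% of stem cells, and median depth was 31829.5 against 8600 UMIs. The part of these in the ratios was not tested. Among H1 genes, Hist1h1b was at 187 CPM in the stem gate and 1531 in the erythroid gate. Hist1h1c was at 224 and 165, and the makeup of H1 shifted with them. Hist1h1b supplied 22.9% of H1 UMIs in the stem gate and 57.4% in the erythroid gate, and Hist1h1c 27.4% and 6.20%.

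Hist1h2ac was at 82.8 CPM in the stem gate and 31.3 in the erythroid gate, and Hist1h2bc, its neighbour on chromosome 13, at 80.8 and 41.6. Both were lower in the erythroid gate, unlike Hist1h2ap, at 326 and 1159 CPM, and Hist1h3c, at 35.0 and 191. Hist1h4d was at 70.1 in the stem gate, 67.3 in the neutrophil gate and 159 in the erythroid gate. The neutrophil gate had the lowest level of 12 of the 46 members with at least 500 UMIs, and the stem gate of 31.

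**Figure D4:**
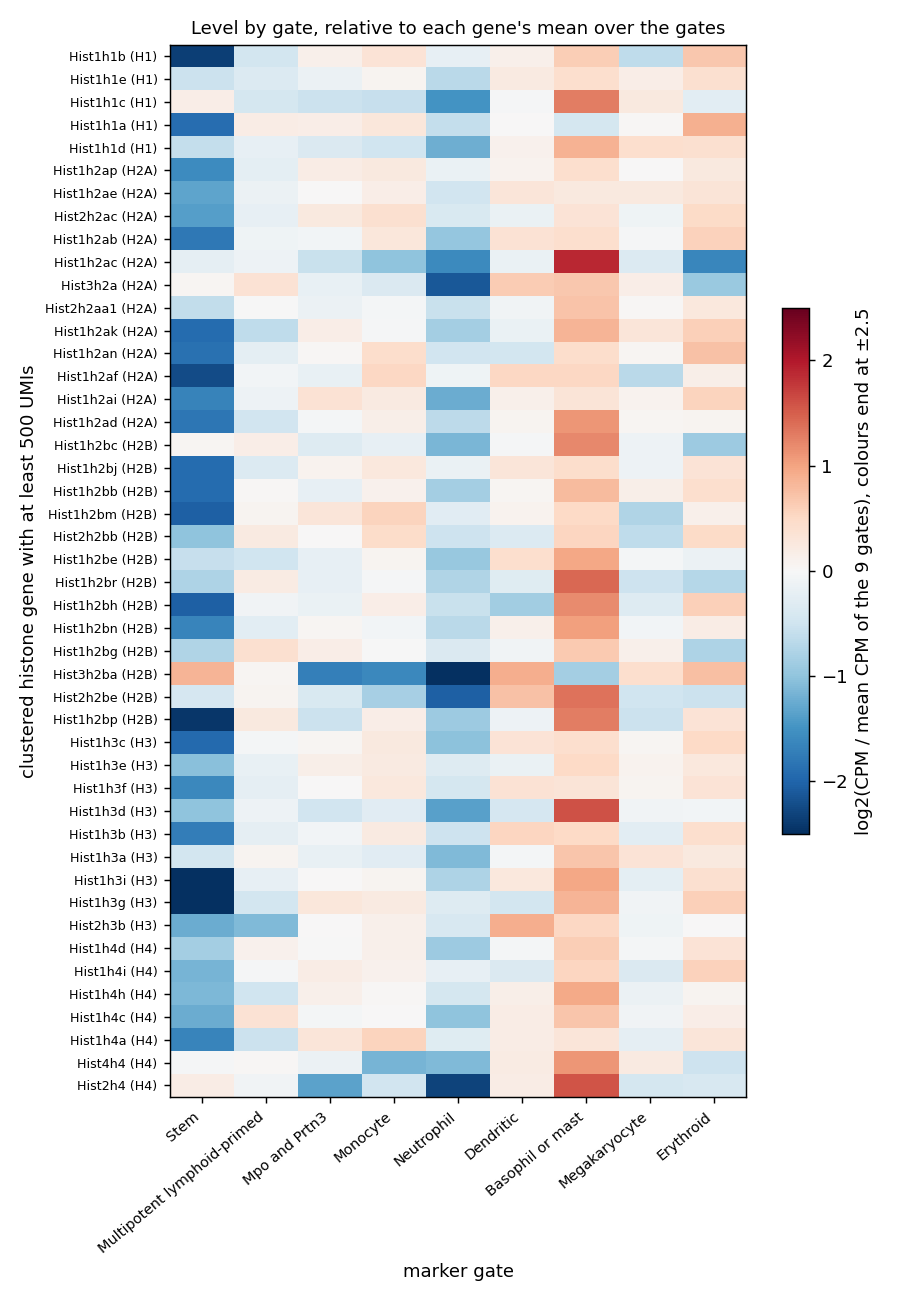
Level of the 46 clustered histone genes with at least 500 UMIs in 9 marker gates, as log2 of CPM over the gene's mean CPM of the gates, red for higher and blue for lower. The stem column is blue for 31 genes that are lowest there, the basophil or mast column holds the highest value of 30 genes, and Hist3h2ba is at 0.868 CPM in the neutrophil column.

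The basophil or mast gate had the highest level of 30 of these 46 members, the erythroid gate of 9, the dendritic gate of 5 and the monocyte gate of 2. All 10 members that stayed under 2-fold between the cycle groups were highest in the basophil or mast gate. Hist1h2ac was at 359 CPM there (343 to 375), 7.63-fold (7.24 to 8.04) its level over the other 8 gates. Hist1h1c was at 481 CPM, 3.18-fold (3.05 to 3.31), and Hist1h2bc at 178 CPM, 3.16-fold (2.95 to 3.38). Hist1h3d was at 84.7 CPM and Hist1h2br at 58.8. Hist1h2ap, by comparison, was 1.22-fold (1.19 to 1.25) and Hist1h1b 1.24-fold (1.22 to 1.27).

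Hist3h2ba, an H2B gene at chr11:58948920-58949533 on the plus strand, was low in the neutrophil and monocyte gates. It was at 15.9 CPM in the stem gate, 16.5 in the dendritic, 14.8 in the erythroid and 11.8 in the megakaryocyte gate. It was at 0.868 CPM in the neutrophil gate (9 UMIs), 2.71 in the Mpo and Prtn3 gate and 2.91 in the monocyte gate. Its level in the neutrophil gate was 0.0943-fold (0.0430 to 0.180) that over the other gates. Its windows were shared with other genes for 8.57% of positions, and its ratio between the cycle groups was 3.03.

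Within each gate the comparison of cells with both cycle genes and with neither was repeated. The interval of the ratio was above 1 in 9 of 9 gates. It was 3.64 (3.48 to 3.81) in the stem gate, 3.22 in the basophil or mast gate, 2.98 in the megakaryocyte gate, 2.51 in the erythroid gate, 2.24 (2.18 to 2.31) in the neutrophil gate, 2.11 in the monocyte gate and 1.83 (1.76 to 1.91) in the Mpo and Prtn3 gate. The multipotent lymphoid-primed gate had 3.28, and the dendritic gate 6.37 (5.78 to 7.03), with 30 cells against 31.

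Cells with only Pcna differed between the gates in how they compared with cells with neither. In the stem gate they were at 1339 and 1342 CPM, with overlapping intervals. In the erythroid gate they were at 4188 and 2765, and in the neutrophil gate at 3469 and 2187. In the megakaryocyte gate the order was the other way, at 1982 and 2503. The differences between gates were not tested.

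**Figure D5:**
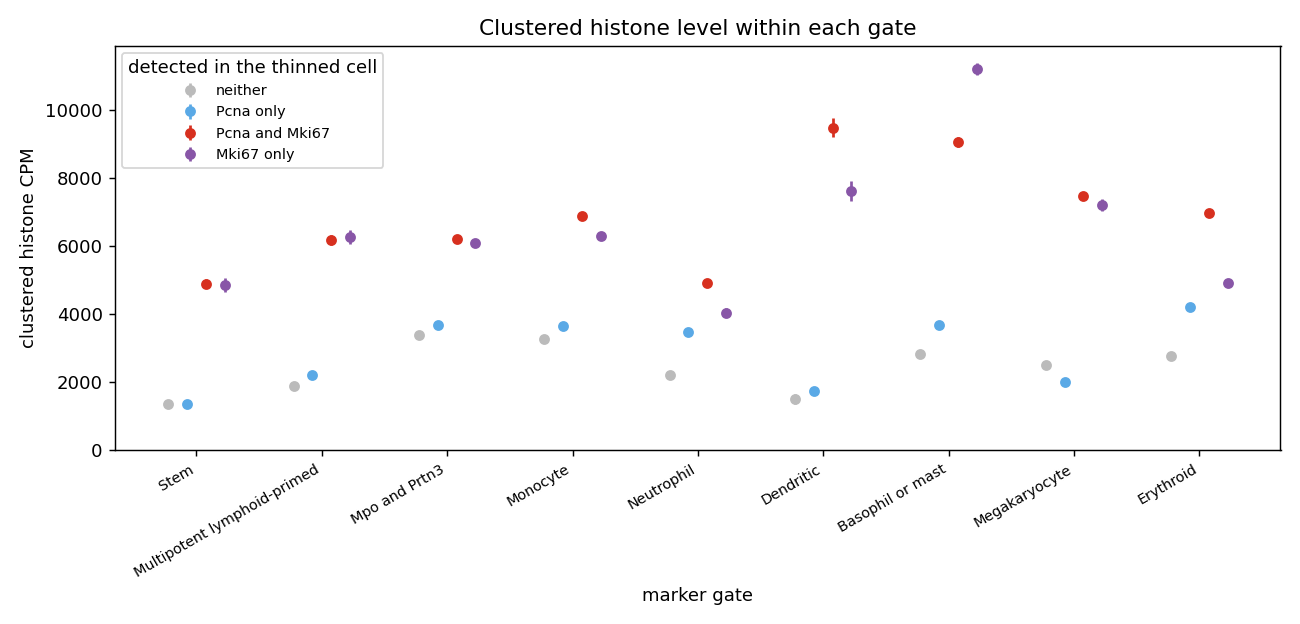
Clustered histone CPM in 9 marker gates for cells with neither cycle gene, only Pcna, both, or only Mki67 detected after thinning to 5000 UMIs; bars are 95% Poisson intervals. In every gate the cells with both lie above those with neither, and the basophil or mast cells with only Mki67 lie highest at 11202 CPM.

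Among cells with both cycle genes, the level was 4888 CPM in the stem gate (65 cells) and 4907 in the neutrophil gate (108), against 9055 in the basophil or mast gate and 9464 in the dendritic gate. By type in the stem gate, the ratio between both and neither was 5.25 (4.88 to 5.64) for H2A and 2.80 (2.61 to 3.02) for H1. Cells in which clustered histone genes took at least 1% of UMIs made up 3.44% (2.17 to 5.17) of the stem gate, 6.67% (4.66 to 9.19) of the neutrophil gate, 17.0% (15.1 to 19.2) of the erythroid gate, 21.4% (19.4 to 23.5) of the monocyte gate and 27.2% (22.8 to 31.9) of the basophil or mast gate.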

How the data were processed

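Single-cell RNA-seq of 1 control library was analysed. The authors deposited a filtered matrix of UMI counts per gene and barcode, made with Cell Ranger 6.0.2 on mm10 per the submitters' notes; the counts carry no normalization. The labels' extraction text describes bulk libraries, whereas the methods describe droplet 3′ libraries. The cell filter required more than 1000 UMIs and genes, fewer than 50000 UMIs, fewer than 6500 genes and a mitochondrial share below 7%. Scrublet, run in scanpy 1.11.5, called 268 doublets (3.51%), which were kept and left out in an alternative. Cells with at least 5000 UMIs were thinned to 5000 to set gates and cycle groups (99 shallower cells were left out), and levels were then summed from unthinned counts with exact Poisson intervals. Ratios had exact conditional binomial intervals and shares Clopper-Pearson intervals, at 95%, with scipy 1.17.1. The ratio step was tested on simulated data.

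Named members were the 4 of each type with most UMIs, those with at least 500 UMIs and a ratio under 2, and those at 0; from the other lists, the genes with the highest and lowest ratio. Other members, and H2afx and H1f0 among the histone genes outside the clusters, were named after their values were seen. The members and lists were chosen with earlier results of these data known. Stem-loops and polyadenylation signals came from GENCODE M21 transcripts, promoters from RefSeq. How reads that match several genes were treated is not given in the sources used here.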

Additional observations from a re-analysis of the deposited data

Results flagged for a closer look

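The 213 barcodes left out for having 50000 or more UMIs or 6500 or more genes also carried clustered histone transcripts. Their summed level was 4626 CPM (4588 to 4665), against 5165 CPM in the cells kept. The 909 barcodes with 7% or more mitochondrial UMIs had 2780 CPM, and the 574 with 1000 genes or fewer had 1361.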

How the results depend on the processing

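The direction of each summed comparison held under all alternatives that were run. The clustered histone level over all cells was 5076 CPM with no cell filter, 5210 with a stricter filter (at least 5000 UMIs and under 5% mitochondrial UMIs), 7976 with mitochondrial, ribosomal protein, haemoglobin and histone UMIs left out of the total, and 4590 with each cell weighted equally. The ratio between cells with both cycle genes and with neither was 2.87 without doublet calls, 2.67 with no filter, 2.70 with the stricter filter, 2.78 with the reduced total, 3.14 with equal weights, 2.88 with another thinning seed and 2.51 when thinned to 3000 UMIs. Within the neutrophil gate it was 2.36 with equal weights, 2.46 with another seed and 2.09 with 1 marker more for a gate. The erythroid over stem ratio was 2.83 with no filter, 2.53 with the stricter filter, 3.43 with equal weights and 3.10 with 1 marker more. Members at least 2-fold higher numbered 43 to 52 between the cycle groups and 38 to 43 between the gates. In the main setting they were 48 of 60 measured and 39 of 57. Between the cycle groups they were 49 of 60 without doublet calls and 46 of 60 with no filter. The alternatives included a minimum of 1 UMI for a member to be measured, so the number measured can differ between them. The ranges are therefore of counts and not of shares, and shares over all genes are not given for the alternatives.

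Added after seeing the data, the ratio of cells with only Mki67 to those with only Pcna, 2.01, was 2.03 without doublet calls, 1.93 with no filter, 1.97 with the reduced total, 2.37 with equal weights, 2.08 with another seed and 1.80 at 3000 UMIs. The basophil or mast over stem ratio was 3.01 with the stricter filter, 3.31 with the reduced total, 3.93 with equal weights and 3.62 with 1 marker more. Of 32 ratios of types and named members under 7 alternatives, Hist1h1c changed side, from 1.16 to 0.980 with equal weights, and so did Hist1h2bg, from 1.01, with an interval that held 1, to 0.991 with no cell filter. Hist1h4i, at 2.04, was at 1.97 with no filter and 1.95 with the stricter one. The causes were not tested. No paired analysis was possible because there was 1 library. Depth limits the sparse members, and 7 had too few UMIs for a ratio.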
